A study of Glycine max with 12 samples.

Results

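The effect of excess manganese on soybean roots was measured over 2 plant materials at once, by setting all libraries from roots given 50 µM MnSO4 against all libraries from roots given 5 µM, the control concentration. The comparison took in every library of the series, 12 of 12, with 6 libraries a side. Roots labelled W gave 3 libraries at each concentration (control replicates 2, 3 and 4, and Mn replicates 1, 2 and 3), and roots labelled OX3 gave 3 at each (replicates 2, 3 and 4 on both sides). The deposited tables head these materials WT and OX. What OX3 carries, the age of the plants, the length of the treatment and whether libraries came from separate plants are not stated in the labels, so the p-values speak for the scatter among these 12 libraries alone, part of which may be technical.

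Manganese is an essential micronutrient of plants. It is a cofactor of many enzymes and part of the oxygen-evolving complex of photosystem II, and in roots it is taken up by transporters of divalent metals that also carry iron. In excess it is toxic, and plants are known to limit it by storage in the vacuole, by binding to organic acids and by oxidation in the cell wall. None of these processes could be scored here by gene. None of the gene identifiers matched the RefSeq table of 59048 soybean genes by identifier (0 matched), and the deposited tables pair them with no product. Genes are therefore given by identifier without a role, the tissue label could not be set against root markers, and markers of other tissues could not be read. In bulk RNA, fewer cells of a type and less RNA per cell cannot be told apart.

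Total counts lay between 15175866 and 19408318 per library. They averaged lower at 50 µM, from 15175866 to 17902303 against 16310095 to 19408318 at 5 µM, and the 2 ranges overlapped (exact relabelling of the libraries within each material, 400 relabellings, two-sided p = 0.065, and 0.26 after Benjamini-Hochberg adjustment over 8 measures per library). The number of genes detected, between 34494 and 36862, and the share of counts in the 20 most abundant genes, between 5.74% and 10%, also overlapped between concentrations.

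Treatment was the largest of the design's sources of variation in root expression. Of the summed variance of log2 CPM (the read count of a gene scaled to the normalised library total) over 31841 tested genes, treatment held 23.2%, material 12.8% and their interaction 7.93%, where each would hold 9.09% if all libraries were alike but for random spread. The remaining 56.1% lay between libraries of the same group. On the first principal component, with 33.7% of the variance, scores at 50 µM averaged 53.7 (SD 42.4) and scores at 5 µM averaged -53.7 (SD 59.4). No other assignment of treatments within materials separated the scores as far, apart from its mirror image (exact relabelling, two-sided p = 0.005, the smallest that 400 relabellings can give, and 0.04 after adjustment over the 8 measures). These relabellings treat W and OX3 libraries as independent, although same-numbered libraries within a treatment deviated together, as given below, so this p does not allow for shared numbers. The 9.09% set beside each share of variance rests on the same independence and does not allow for them either. The second component, with 18.9% of the variance, had overlapping scores at the 2 concentrations (exact relabelling, p = 0.19, adjusted 0.3). W control replicate 3 had the lowest score on it, -136.8, and also the fewest genes detected, 34494.

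A pair of libraries overlapped the other side on that first component. W control replicate 4 scored 35.3, next to OX3 Mn replicate 3 at 35.6, and OX3 Mn replicate 4 scored -16.8, below W control replicate 3 at -1.23. W control replicate 2, at -107.2, lay beside OX3 control replicate 2 at -107.1 and far from the other W controls. Counts of genes past a p threshold and the calls on named genes are given below with and without these libraries. The shares of variance, component scores, length, and responses read across materials were computed on all 12 libraries only.

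**Figure D1:**
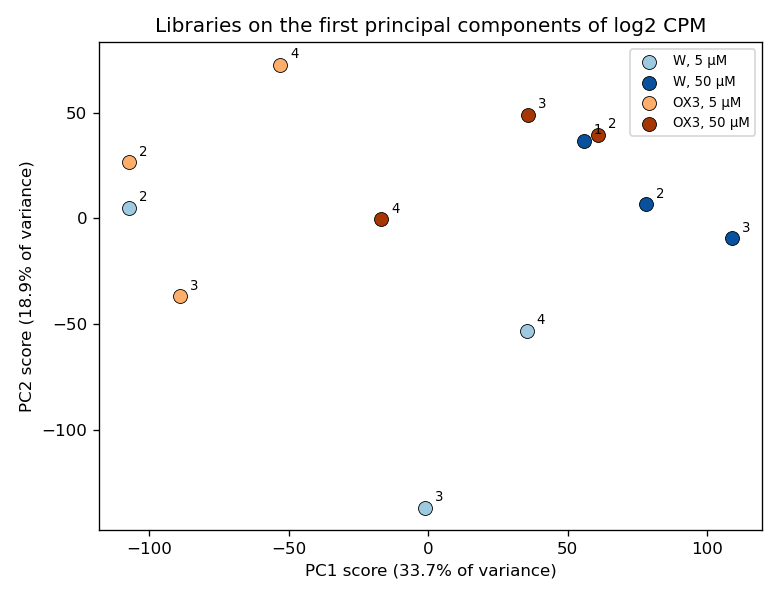
Each point is a library, placed by its score on the first (horizontal) and second (vertical) principal component of log2 CPM, with the replicate number beside it and the 4 groups in colour. The libraries at 50 µM lie to the right, from -16.8 to 108.9 on the first component, and those at 5 µM to the left, from -107.2 to 35.3.

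Averaged over both materials, 405 genes were higher and 335 lower at 50 µM at an adjusted p under 0.05 in edgeR's quasi-likelihood test. These 740 genes were 2.32% of the genes tested, 1.27% in the direction of a rise and 1.05% in that of a fall. With upper-quartile scaling 431 were higher and 552 lower. A filter at a mean of 2 CPM gave 411 and 456. Leaving out W control replicates 2 and 4 and OX3 Mn replicate 4 kept a single W control library, so no count is given for that fit. The other fits that called more than 3 genes had more higher than lower genes. Among the 740, higher genes changed more than lower ones: their median log2 fold change was 1.91 (quartiles 1.29 and 2.93), against -1.13 (quartiles -1.45 and -0.89). Of the higher genes 98 differed by over 8-fold and 88 by 4- to 8-fold, whereas 3 lower genes differed by over 8-fold and 29 by 4- to 8-fold. The same lean was present among all genes tested, where 184 were over 8-fold higher and 23 over 8-fold lower by the fitted value, with a median log2 fold change of -0.04.

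The count depended on the model and on single libraries. In limma-voom, without a block, 276 genes passed and 7729 had an unadjusted p under 0.05. With libraries of W and OX3 that share a number within a treatment as a random block, at an estimated correlation of 0.381, limma-voom passed 0 genes, the smallest adjusted p was 0.14, and 5474 genes had an unadjusted p under 0.05. This bears on the count, since the deviations of such libraries from their group means went together in all 5 pairs, with r across genes from 0.16 to 0.45. Of the 740 genes, 608 had an adjusted p between 0.043 and 0.045 and 1 had an adjusted p under 0.04, so most of the list lay on a plateau near the threshold: at a threshold of 0.04 the count was 1, and at 0.1 it was 3340. In edgeR's test the count was 3 or fewer without any one of 9 libraries, namely W control replicates 2 and 3, W Mn replicates 1, 2 and 3, OX3 control replicates 2 and 3 and OX3 Mn replicates 2 and 3. It went up to 1842 when W control replicate 4 was left out, to 1721 for OX3 control replicate 4 and to 1806 for OX3 Mn replicate 4. Without W control replicate 2 and OX3 Mn replicate 4 together it was 717, of which 448 were among the 740.

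**Figure D2:**
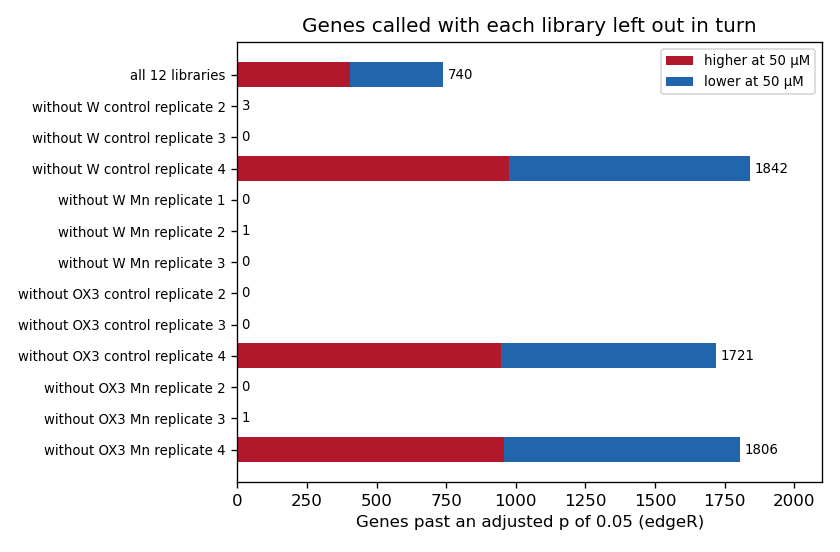
Bars give the number of genes that edgeR's test put past the adjusted threshold of 0.05 with all 12 libraries and with each library left out, split into genes higher (red) and lower (blue) at 50 µM. The count is 740 with all libraries, 1721 to 1842 in 3 of the reduced sets and 0 to 3 in the other 9.

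The excess over chance of small unadjusted p-values was less dependent on single libraries than the adjusted count. With all libraries, 7943 genes had an unadjusted p under 0.05, 3809 higher and 4134 lower, where 1592 would be expected from unrelated genes and libraries with no structure but the groups. Without each library in turn this number lay between 6248 and 8716. None of these edgeR fits holds the block, which in limma-voom moved the number from 7729 to 5474.

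Which side of each list was lower is fixed by its direction. Genes that rose had a median level of 4.87 CPM at 5 µM and 19.7 CPM at 50 µM, and genes that fell a median of 16.2 CPM at 5 µM and 7.82 CPM at 50 µM. Of the 405 genes that rose, 99 averaged under 1 CPM at 5 µM, and of the 335 that fell, 28 did so at 50 µM. A gene near 0 on one side could pass the filter on low counts through the other side alone, so these numbers describe the lists and test nothing. Full loss or full gain of a transcript was not seen among the 740: none had 0 counts over the 6 libraries of a side (0 genes), and 3 had at most 3 counts over the 6 libraries at 5 µM.

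**Figure D3:**
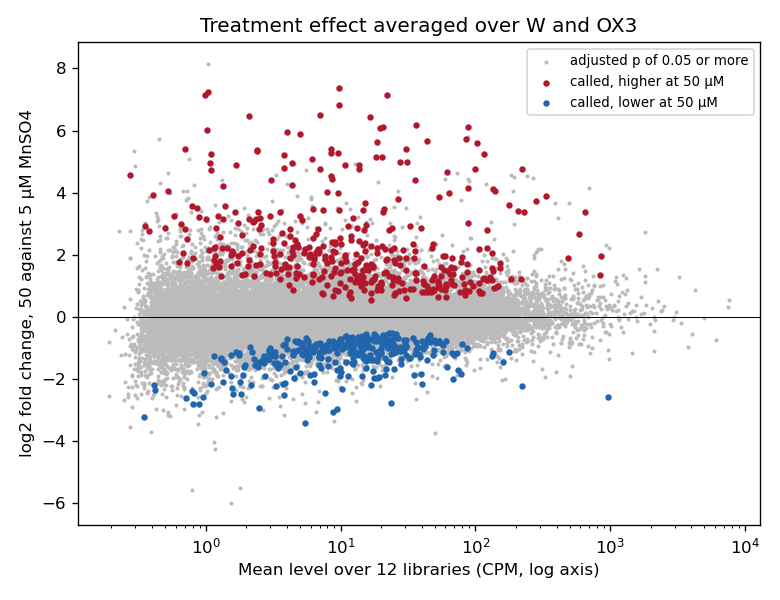
Each point is 1 of 31841 genes, placed by its mean level over 12 libraries (CPM, log axis) and its log2 fold change between 50 and 5 µM averaged over W and OX3, with called genes in red (higher) and blue (lower). The red points reach a log2 fold change of 7.38 and the blue points -3.41.

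As a share of the counts of a library, the genes that rose took between 0.547% and 1.12% at 5 µM and between 1.22% and 2.85% at 50 µM. The genes that fell took between 0.583% and 1.39% at 5 µM and between 0.282% and 0.811% at 50 µM. In both sets W control replicate 4 was the control nearest to the treated libraries (1.12% and 0.583%) and OX3 Mn replicate 4 the treated library nearest to the controls (1.22% and 0.811%). The genes were chosen on these same libraries, so the shares describe the lists and do not test them.

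Calls were spread over levels and chromosomes. By quintile of mean level, the share of genes called was 1.3% in the lowest, at 0.191 to 1.94 CPM, and between 2.25% and 2.97% in the others. In the highest quintile, above 32.4 CPM, 113 genes were higher and 47 lower, while the fourth held 86 higher and 103 lower. The median log2 fold change of all genes went up with level, from -0.2 in the lowest quintile to 0.13 in the highest. By the chromosome in the identifier, the share called ran from 1.65% on chromosome 20 to 3.18% on chromosome 3, and each of the 20 chromosomes held genes of both directions.

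Gene length differed between the 2 directions. The median length was 1416 bp for genes that rose and 1998 bp for genes that fell, against 1884 bp for all genes tested. In the shortest quintile, up to 1217 bp, 164 genes were higher and 44 lower. In the longest, from 2800 bp, 46 were higher and 79 lower. The median log2 fold change of all genes ran in the same order, from 0.09 in the shortest quintile to -0.15 in the longest. It also ran with level, as given above, and length and level were not separated. In single libraries, the median log2 deviation of the shortest quintile minus that of the longest lay between -0.558 and 0.219 at 5 µM and between -0.208 and 0.445 at 50 µM (exact relabelling, p = 0.10, adjusted 0.26). The lowest value was that of W control replicate 2 and the highest that of W Mn replicate 3. Short and long transcripts can also shift with RNA integrity, and the part of such a shift in the calls was not tested.

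By the rule for named genes, which asks for a mean of at least 2 CPM and no overlap between the 6 libraries of each side, the largest rise was that of Glyma.11G091600. Its level at 5 µM was 0.269, 0.712 and 3.79 CPM in W control replicates 2, 3 and 4, and 0.0828, 0.0965 and 0.917 CPM in OX3 control replicates 2, 3 and 4. At 50 µM it was 22.7, 19.6 and 9.53 CPM in W Mn replicates 1, 2 and 3, and 20.4, 17.3 and 8.65 CPM in OX3 Mn replicates 2, 3 and 4. Every treated library lay above every control, with replicate 4 the highest control in both materials. The log2 fold change was 4.44 (SE 0.68), and edgeR's adjusted p was 0.044. It was 3.46 (SE 0.9) within W and 5.42 (SE 1.02) within OX3, a difference of 1.96 (SE 1.27) for which edgeR's interaction test gave an adjusted p of 0.73.

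Glyma.09G269400 came next and had much the same profile. Its level was 0.269, 0.499 and 6.92 CPM in W control replicates 2, 3 and 4, and 0.124, 0.338 and 0.968 CPM in the OX3 controls. At 50 µM it was 26.6, 21.9 and 10.5 CPM in W Mn replicates 1, 2 and 3, and 20, 16.8 and 9.88 CPM in OX3 Mn replicates 2, 3 and 4. The gap between the sides ran from 6.92 to 9.88 CPM and was set by W control replicate 4 and OX3 Mn replicate 4. The log2 fold change was 4 (SE 0.73), 2.96 (SE 0.97) within W and 5.04 (SE 1.1) within OX3. Its adjusted p was 0.044 over both materials and 0.74 for the difference between them, both in edgeR's test. Per length, in the deposited FPKM (reads scaled by gene length and by the library total), it stood at 15.7 ± 7.3 (SD, n = 3) in W at 50 µM, and Glyma.11G091600 at 7.69 ± 3.4 (SD, n = 3).

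Among genes that fell, Glyma.12G059200 had the largest change. Its level was 11.2, 23 and 5.35 CPM in W control replicates 2, 3 and 4, and 5.5, 11.8 and 3.06 CPM in the OX3 controls. At 50 µM it was 1.97, 1.23 and 0.21 CPM in W Mn replicates 1, 2 and 3, and 0.0652, 0.186 and 1.73 CPM in OX3 Mn replicates 2, 3 and 4. In both materials control replicate 3 was the highest and control replicate 4 the lowest of the controls. The log2 fold change was -3.41 (SE 0.7), -3.51 (SE 0.98) within W and -3.31 (SE 1) within OX3, and edgeR's adjusted p over both was 0.044. The 6 libraries at 50 µM held only 89 counts of it against 1094 at 5 µM, and OX3 Mn replicates 2 and 3 were at the lowest levels.

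Glyma.03G092800 fell from 22.1, 11.9 and 8.29 CPM in W control replicates 2, 3 and 4 to 4.35, 2.9 and 0.771 CPM in W Mn replicates 1, 2 and 3. In OX3 it fell from 18.9, 21.9 and 18.8 CPM in control replicates 2, 3 and 4 to 2.81, 3.04 and 6.81 CPM in Mn replicates 2, 3 and 4. The OX3 controls were close together, whereas those of W ranged from 8.29 to 22.1 CPM. The log2 fold change was -2.31 (SE 0.39), with -2.39 (SE 0.56) in W and -2.23 (SE 0.55) in OX3. The adjusted p was 0.044 over both materials and 0.97 for their difference, in edgeR's test. In all, 244 of the 740 genes met the rule, 98 higher and 146 lower.

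The calls on these 4 genes held without replicate 4 of the W controls, of the OX3 controls or of OX3 Mn, and ended without any other single library, where edgeR's adjusted p reached at most 0.12. They also ended with same-numbered libraries as a block within treatment, with an adjusted p of 0.14 in limma-voom. Sample weights in limma-voom ended them too, at an adjusted p from 0.055 to 0.065. In edgeR, a fixed block over all groups, which in effect left out W Mn replicate 1, gave 0.065 to 0.077. Limma-voom without block or weights ended the call on Glyma.12G059200 alone, at 0.052. All 4 calls held with DESeq2, other size factors, other filters and the additive model. Leaving out W control replicate 4 moved the log2 fold change of Glyma.11G091600 to 5.31 and that of Glyma.09G269400 to 5.38. Leaving out OX3 control replicate 4 moved Glyma.11G091600 to 5.40, and leaving out OX3 Mn replicate 4 moved Glyma.12G059200 to -4.60.

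Glyma.18G118300, chosen after its values were seen, had the smallest adjusted p of all genes tested (0.012 in edgeR's test). Its level was 1.16, 1.07 and 1.83 CPM in W control replicates 2, 3 and 4, and 0.662, 0.434 and 0.713 CPM in the OX3 controls. At 50 µM it reached 12.6, 9.21 and 13 CPM in W Mn replicates 1, 2 and 3, and 7.11, 9.24 and 2.73 CPM in OX3 Mn replicates 2, 3 and 4. The sides did not overlap, and W lay above OX3 at both concentrations in group mean. The log2 fold change was 3.24 (SE 0.32), and it was 3.10 (SE 0.44) in W and 3.38 (SE 0.45) in OX3. The call ended without W control replicate 3, W Mn replicate 1 or 3, OX3 control replicate 2 or 3 or OX3 Mn replicate 2, where the adjusted p in edgeR's test lay between 0.052 and 0.088. In limma-voom the adjusted p was 0.14 with same-numbered libraries as a block within treatment, 0.055 with sample weights and 0.047 without either. In edgeR with a fixed block over all groups it was 0.065. The log2 fold change over all 24 alternative fits stayed between 3.05 and 3.58.

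**Figure D4:**
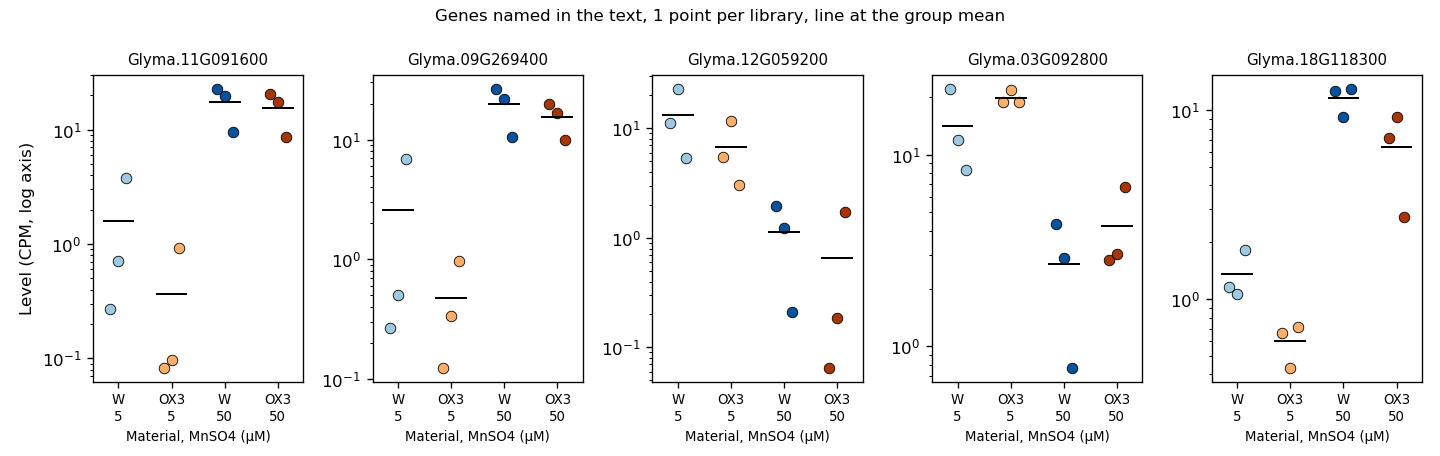
Each panel is 1 gene and each point 1 library, placed by material and MnSO4 concentration (µM) and by level (CPM, log axis), with a line at the mean of the 3 libraries of a group. In all 5 panels the 6 libraries at 50 µM lie on one side of the 6 at 5 µM, and the step is narrowest in Glyma.03G092800, between 6.81 and 8.29 CPM.

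Over all genes tested, the libraries of the 2 sides were fully apart in 662, or 2.08%, with 302 higher and 360 lower at 50 µM. Among the 740 called genes this held for 286, or 38.6%, with 122 of the higher genes (30.1%) and 164 of the lower genes (49%). The call and the separation use the same values, so the share among called genes is a description.

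The response was then set out by material. Of the 740 genes, 738 moved in the same direction in W and OX3, as against 20564 (64.6%) of all genes tested, which the choice of genes by their average favours. At an unadjusted p under 0.05, 672 of the 740 differed within W, 680 within OX3 and 612 within both, where 18.6%, 15% and 4.57% of all genes tested did. The 740 were chosen on the average of these same fold changes, so nothing is read from that contrast. Median log2 fold changes of the higher genes were 1.68 in W and 1.99 in OX3, and of the lower genes -1.13 and -1.04. The fold change was the larger in OX3 for 245 of the 405 higher genes and the larger in W for 192 of the 335 lower genes (60.5% and 57.3%). Over all genes tested these shares were 47.3% and 52.7%. A difference in response passed edgeR's interaction test, adjusted over all genes, in 1 of the 740, and in no other gene tested (1 of 31841, or 0.00314%). At an unadjusted p under 0.05 the interaction counted 74 of the 740 (10%) and 2404 of all genes tested (7.55%).

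The 2 genes that went opposite ways were Glyma.12G172300 and Glyma.06G302300, both named after their values were seen. Glyma.12G172300 rose in W, from 3.94, 4.49 and 4.7 CPM in control replicates 2, 3 and 4 to 19, 19.6 and 17.3 CPM in Mn replicates 1, 2 and 3. In OX3 it stood at 8.9, 9.02 and 7.95 CPM in control replicates 2, 3 and 4 and at 6.33, 7.38 and 5.58 CPM in Mn replicates 2, 3 and 4. Its average log2 fold change of 0.83 (SE 0.13) thus combined 2.09 (SE 0.19) in W with -0.42 (SE 0.19) in OX3. In a model with material and treatment as additive factors its adjusted p was 0.23 in edgeR's test, against 0.044 with 4 groups.

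Glyma.06G302300 was lower on average, with a log2 fold change of -1.17 (SE 0.22) and edgeR's adjusted p at 0.044. In OX3 it went from 23.5, 30.9 and 15.9 CPM in control replicates 2, 3 and 4 to 3.85, 3.16 and 3.74 CPM in Mn replicates 2, 3 and 4. In W it was at 11.4, 8.12 and 6.66 CPM in control replicates 2, 3 and 4 and at 15.2, 8.63 and 10.1 CPM in Mn replicates 1, 2 and 3, where the concentrations overlapped. The difference in response was -3.08 (SE 0.44), and edgeR's interaction test gave it an adjusted p of 0.27. In the additive model edgeR's adjusted p for its average was 0.2. The calls on the average of both genes ended without the same 9 libraries as the calls on the 4 genes named by rule, with edgeR's adjusted p up to 0.12, and with the block within treatment (0.14 for each in limma-voom). In limma-voom without a block the adjusted p was 0.051 for Glyma.06G302300 and 0.047 for Glyma.12G172300, and with sample weights 0.06 and 0.055. In edgeR with a fixed block over all groups it was 0.065 for Glyma.06G302300 and 0.068 for Glyma.12G172300. Without W control replicate 2 and OX3 Mn replicate 4 together, edgeR's adjusted p was 0.053 for Glyma.06G302300 and 0.036 for Glyma.12G172300.

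**Figure D5:**
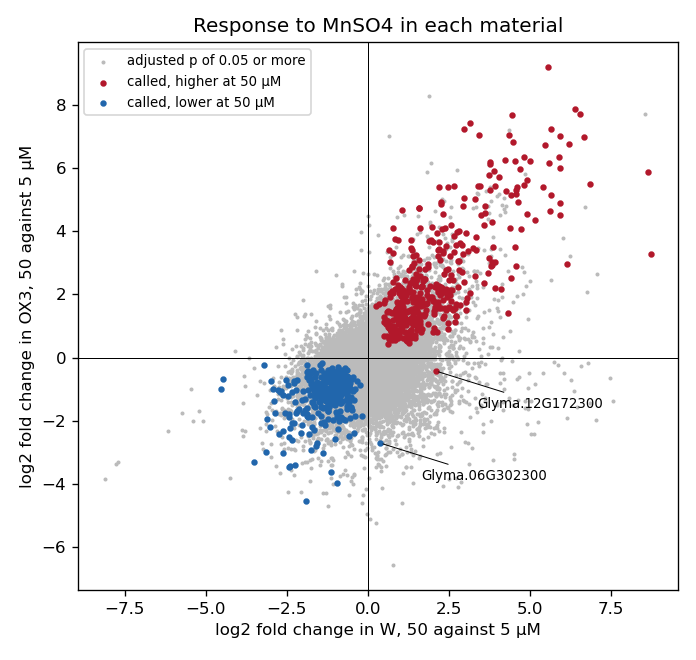
Each point is a gene, placed by its log2 fold change between 50 and 5 µM in W (horizontal) and in OX3 (vertical), with genes called on the average in red (higher) and blue (lower). Of the 740 called genes 738 lie where both fold changes have the same sign, and the 2 that do not are labelled.

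The response in one material was also read in the libraries of the other, whose fold change played no part in choosing the genes. The estimate of spread, the scaling and the filter on low counts were shared by all 12 libraries, so the choice was not fully separate. Of 753 genes higher in W at an unadjusted p under 0.01, 640 (85%) were higher in OX3, where 47.5% of all genes tested were, and their median log2 fold change was 1.62 in W and 0.69 in OX3. Of 1013 genes lower in W, 841 (83%) were lower in OX3, where 52.5% of all genes were, with medians of -1.1 and -0.39. In the other direction, 665 of 717 genes higher in OX3 (92.7%) were higher in W, where 48.5% of all genes were, with medians of 1.76 and 0.91. Of 686 genes lower in OX3, 533 (77.7%) were lower in W, where 51.5% of all genes were, with medians of -1.35 and -0.46. Genes are not independent, and libraries of W and OX3 with the same number deviated together, so these shares carry no p-value.

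The same transfer gave each library a position on genes chosen by the fold change in the other material. On the genes chosen in OX3, the median log2 shift from the W control mean, signed by the direction in OX3, was -0.37, -0.08 and 0.44 in W control replicates 2, 3 and 4. It was 0.58, 0.61 and 0.79 in W Mn replicates 1, 2 and 3, so the concentrations did not overlap, with W control replicate 4 the nearest control. On the genes chosen in W, the OX3 controls stood at -0.05, -0.17 and 0.22 for replicates 2, 3 and 4. OX3 Mn replicates 2 and 3 stood at 0.62 and 0.57, and OX3 Mn replicate 4 at 0.15, below OX3 control replicate 4. Replicate 4 thus stood highest among the controls of both materials and lowest among the treated libraries of OX3. The labels do not say what the replicate numbers stand for.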

How the data were processed

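RNA of soybean roots was sequenced in 12 libraries, grouped by their titles. Per the labels' protocols, RNA came from Trizol extraction and went into the VAHTS Universal V6 kit. The authors deposited raw read counts per gene, and FPKM, which equalled the counts scaled by column total and by a gene length that is a whole number (largest deviation 3.6e-12); lengths were taken from it. HTSeq 0.6.0, HISAT2 2.1.0, TopHat2, Bowtie2 2.2.3 and CASAVA are listed in the submitters' processing notes, with no roles; strand setting and treatment of shared reads are not given in the sources used here, so genes with near-identical copies or overlapping partners are uncertain. Identifiers carry Wm82.a2.v1, left off here.

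Counts of 43517 genes were filtered by filterByExpr (31841 kept), scaled by TMM (factors 0.859 to 1.25) and fitted with edgeR 4.0.16 in R 4.3.3, with 1 coefficient per group. The contrast was the mean of both differences between 50 and 5 µM. Tests were two-sided, adjusted by Benjamini-Hochberg over all genes tested. SE is the fold change divided by the root of F. Log2 CPM used a prior count of 2. Named genes were the 2 largest changes in each direction past 0.05, at 2 CPM or more, without overlap; others are marked. Members, lists and tests were chosen with earlier results of these data known, and the 27 gene lists had no member to count.

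Replicate numbers have no stated meaning. Deviations of same-numbered libraries from group means correlated in 5 of 5 pairs across materials within a treatment (0.16 to 0.45), but from -0.19 to 0.27 across treatments. Each deviation is from the mean of its own group, so these pairs are not independent. Pairs with different numbers were not scored. The numbers were therefore taken as possible pairs of W and OX3 within a treatment, on the evidence of the data, and fitted as a random block in limma 3.58.1 (voom, duplicateCorrelation). The other alternatives were DESeq2 1.42.0, other size factors and filters, limma-voom, an additive model, a replicate block over all groups and leaving libraries out. On simulated counts for this comparison (31288 genes, independent libraries, 50 genes a fold), the recovered share was 0% at 1.5-fold, 30% at 2-fold and 98% at both 4-fold and 8-fold, and 7 unchanged genes were called. The simulation took the spread among libraries from the fit, held no effect of material and changed only genes above a minimum level. These shares therefore check the procedure and need not hold for the real libraries. Summaries were made in Python with numpy 2.4.6, pandas 2.3.3 and scipy 1.17.1.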

Additional observations from a re-analysis of the deposited data

Results flagged for a closer look

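The response of Glyma.12G172300 to Mn differed between the materials: the log2 fold change in OX3 less the one in W was -2.51 (SE 0.27), and edgeR's interaction test over all genes gave an adjusted p of 0.029. All 3 W libraries at 50 µM lay above all 3 W controls, and all 3 OX3 libraries at 50 µM lay below all 3 OX3 controls. The size of the difference lay between -2.62 and -2.35 over 23 alternative fits. Leaving out any single library ended the call, with edgeR's adjusted p between 0.075 and 0.21, and over all alternatives between 2.5e-16 and 0.61.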

How the results depend on the processing

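The direction of the average response was the same for each of the 740 genes that had a value in each of the 24 alternative fits. The 740 were chosen on these same counts, which favours an unchanged direction, so this is a description. The number past the threshold did not hold. It stayed within 1.5 times of 740 with RLE size factors (764), upper-quartile factors (983), an additive model (790), no filter on low counts (724), a mean of at least 2 CPM (867), and without W control replicate 2 and OX3 Mn replicate 4 (717). The fit that also left out W control replicate 4 kept a single W control library, so no count is given for it. A similar count did not always mean the same genes. Of the 740, 448 were among the 717, against 645 to 727 in the other fits with counts just given. The count was 4143 with DESeq2, of which 739 were among the 740, 276 with limma-voom, 2 with limma-voom with sample weights, and 3340 at an adjusted p threshold of 0.1. With the replicate number as a fixed block it was 0 in edgeR (7812 genes at an unadjusted p under 0.05). W Mn replicate 1 is the only library with its number, so that fit in effect left it out. Without W Mn replicate 1 and with no block, edgeR's count was also 0. The fit with the fixed block therefore cannot show what blocking alone does to the count. With the replicate block within treatment the count was 0 in limma-voom (5474). With each library left out in turn it ran from 0 to 1842; the counts of 0 had between 6248 and 7802 genes at an unadjusted p under 0.05. Alternatives that leave out libraries set apart, and the threshold of 0.1, were chosen after seeing the data. The cause of these changes was not tested. Upper-quartile factors moved the share of higher genes among those called from 54.7% to 43.8%, and the median log2 fold change of all genes from -0.04 to -0.1. The share was 47.4% with a mean of at least 2 CPM. In the other fits that called more than 3 genes, leaving aside the fit with a single W control library, it lay between 52.9% and 62.7%. The log2 fold changes of the 4 genes named by rule kept their sign: 4.17 to 5.40 for Glyma.11G091600, 3.72 to 5.38 for Glyma.09G269400, -5.00 to -3.08 for Glyma.12G059200 and -2.63 to -2.07 for Glyma.03G092800. Alternatives for the gene lists were not run, since the lists had no member. Of the 740 genes, 49 higher and 128 lower ones changed by under 2-fold. How the calls depend on depth was not tested.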
